A study of Rattus norvegicus with 6 samples.

Results

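A locus on the plus strand of rat chromosome 7 gave the most circular RNA reads of any locus in the thalamus libraries, and nearly all of them came from 2 circles. Its members are novel_circ_0040899, novel_circ_0040892 and every other circRNA on that strand whose genomic span overlaps 30714506 to 30735182. This gave 17 of the 32445 circRNAs in the deposited table. The 2 leading circles were picked for their high read numbers, and the members were thus chosen by their reads, so levels and rank are a description and carry no test. Positions are those of the deposited sequence headers, on a genome build that the sources used here do not name. The files do not pair these identifiers with gene names, so the host gene is not named. The nearest circle just outside the rule, novel_circ_0040905, begins downstream at 30824948 and had 26 reads in CFA replicate 3, the library where it had most.

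The libraries came from the thalamus of 6 rats (Rattus norvegicus). In 3 rats both temporomandibular joints received 50 µL of CFA, complete Freund's adjuvant, which provokes lasting joint inflammation, and in the 3 others the same volume of saline. Injections were repeated 2 times per week and tissue was taken at 14 days, so all rats shared the injections and the wait. The sources used here do not give strain, sex or age. The libraries held 573696 to 1176178 circRNA reads, and 7951 to 22899 of these fell on the locus. These are bulk tissue samples, in which fewer cells that make a circle and fewer copies per cell cannot be told apart. The thalamic label was not checked against markers, since the table holds circRNAs without gene names.

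Circular RNAs form by back-splicing, when the splice donor at the end of an exon joins the acceptor at the start of an exon further upstream. A single donor can pair with several acceptors, and the circles then share their 3′ end but differ in how many exons they enclose. Closed ends shield circles from exonucleases, and circRNAs accumulate in brain tissue, where many come from long neuronal genes. Base 1 of a circle is here the first base after the back-splice junction.

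The junctions show how the circles relate. Each line gives the 58 bases across a back-splice junction, from the deposited sequences: lower case is the donor side, the end of the circle, and capitals are the acceptor side, its start. The first 6 lines are circles with the end at 30735182, so their lower-case parts are identical, and the last line is the most read circle with another end.
novel_circ_0040899: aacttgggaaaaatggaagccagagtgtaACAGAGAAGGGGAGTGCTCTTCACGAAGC
novel_circ_0040892: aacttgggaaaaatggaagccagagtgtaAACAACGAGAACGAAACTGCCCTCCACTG
novel_circ_0040885: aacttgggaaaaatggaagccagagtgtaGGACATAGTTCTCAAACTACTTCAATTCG
novel_circ_0040896: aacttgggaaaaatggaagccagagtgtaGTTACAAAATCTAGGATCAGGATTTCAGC
novel_circ_0040882: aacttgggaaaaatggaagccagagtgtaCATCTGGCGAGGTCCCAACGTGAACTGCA
novel_circ_0040903: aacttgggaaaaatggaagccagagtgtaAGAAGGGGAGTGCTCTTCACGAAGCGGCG
novel_circ_0040901: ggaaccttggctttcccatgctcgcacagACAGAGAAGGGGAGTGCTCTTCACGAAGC
The line of novel_circ_0040901 starts with the same capitals as novel_circ_0040899, since both begin at 30727478. In novel_circ_0040903 the capitals are those of novel_circ_0040899 moved downstream by 4 bases.

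Most reads of the locus shared a donor. Of the 17 circles 9 ended at 30735182, and they held 82504 of the 84309 locus reads, or 97.9%. In the whole series only 9 of 21883 ends were used by as many circles or more, and the median end belonged to 1 circle. Minor circles are listed more readily where reads are many, and this locus had the most. Ends with a like number of reads were not compared. The most read partner of this donor was the acceptor at 30727478, which makes the 7705 nt span of novel_circ_0040899 and took 70.1% of the reads with the shared end. The acceptor at 30714506 of novel_circ_0040892 took 26.6%, over a span of 20677 nt. Next came the acceptors at 30708031 (novel_circ_0040885, 1.79%), 30721656 (novel_circ_0040896, 1.02%) and 30699478 (novel_circ_0040882, 0.288%). The remaining 4 circles with this end, novel_circ_0040888, novel_circ_0040889, novel_circ_0040903 and novel_circ_0040904, held 7 to 119 reads each.

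**Figure D1:**
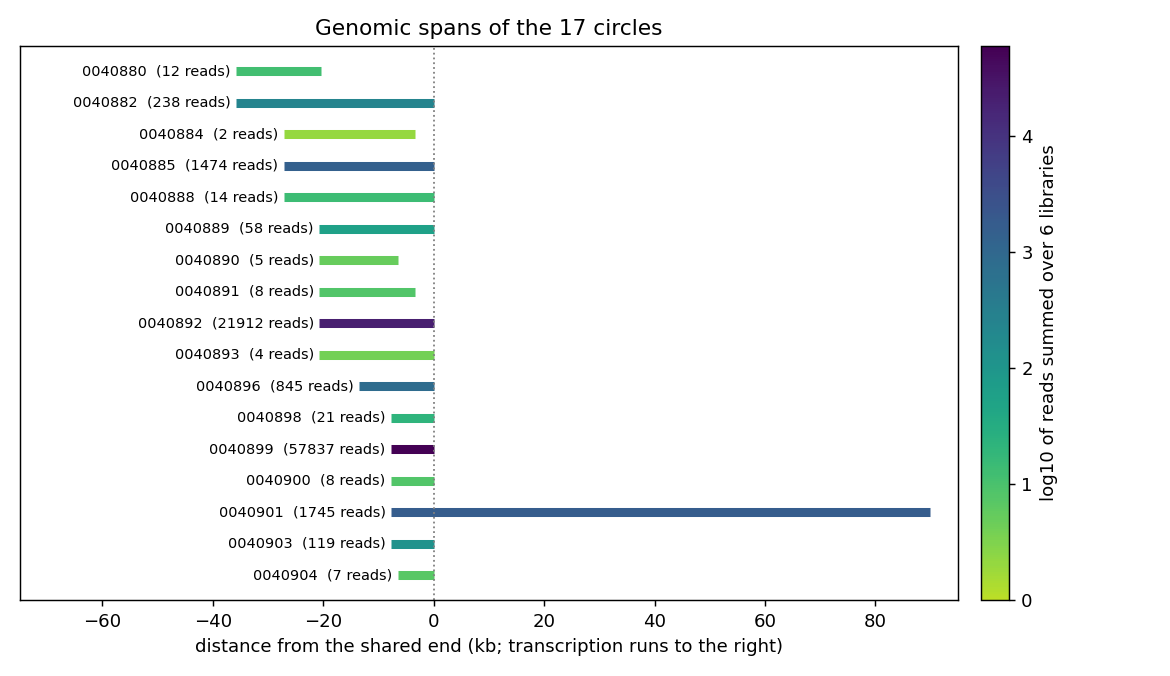
Genomic spans of the 17 circles, drawn to scale as the distance from the shared end in kb, with the colour giving log10 of the reads summed over the 6 libraries. The dotted line marks the end shared by 9 circles, among them the darkest bars, 57837 and 21912 reads; 3 other circles end within 4 nt of it and cannot be told from it at this scale.

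Both leading acceptors were read almost always with the shared donor. Circles with the shared end held 97.0% of the 59611 reads that start at 30727478 and 99.9% of the 21929 reads that start at 30714506. At each start these are the reads of the leading circle itself. Both circles were picked for their reads, so the shares are a description of that choice. Besides novel_circ_0040899, 3 circles began at 30727478, of which novel_circ_0040901 reached to 30825091 and had 1745 reads. The acceptor of novel_circ_0040892 was used by 3 further circles, with 4 to 8 reads each. Starts shared by 4 circles or more were 5.56% of the 20966 starts in the series, whatever their number of reads.

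Small shifts of a border were read far less often than the border itself. The 4 bases that novel_circ_0040903 leaves out at its start are ACAG, which end in AG as splice acceptors do, and its 119 reads were 0.206% of those of novel_circ_0040899. Circles that lose the last 3 bases, GTA, or gain GTAA at the end had 21 reads (novel_circ_0040898) and 8 reads (novel_circ_0040900), or 0.0363% and 0.0138% of the same reads. The gain of GTAA next to novel_circ_0040892, in novel_circ_0040893, had 4 reads or 0.0183% of that circle's reads. Whether such reads are splicing at a neighbouring site or placed there by alignment was not tested.

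The exon content could be read from the lengths and letters of the deposited sequences. Cutting them at the borders that other circles use gave 9 numbered blocks and 2 segments, called a and b, that lie inside a circle and form no border. Blocks 3, 6 and 9 have both borders set by circles. These lie at 30714506 to 30714802 (297 nt), 30728664 to 30728765 (102 nt) and 30824948 to 30825091 (144 nt). Blocks 3 and 6 were cut at these lengths. Block 9 is what remained of novel_circ_0040901 after blocks 5 to 8, and its length equalled its distance. Blocks 1, 2, 4, 5, 7 and 8 are 81, 100, 43, 76, 117 and 167 nt. Since no exon annotation of this build was used, the blocks are not called exons.

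The leading circle is 531 nt, made of blocks 5, 6, 7 and 8 with segment a between blocks 6 and 7 and segment b between blocks 7 and 8. Positions 128 to 405 of its deposited sequence, from within block 6 to within block 8, are shown with both segments in capitals, first a (16 nt) and then b (53 nt), because these set it apart from the minor circles.
novel_circ_0040899: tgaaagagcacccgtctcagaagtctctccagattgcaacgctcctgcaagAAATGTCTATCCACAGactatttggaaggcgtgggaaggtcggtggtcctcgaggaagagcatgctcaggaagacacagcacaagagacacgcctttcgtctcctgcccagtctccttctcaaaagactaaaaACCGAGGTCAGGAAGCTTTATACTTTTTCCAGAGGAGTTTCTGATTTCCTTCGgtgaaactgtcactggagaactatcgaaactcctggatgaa

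The second circle is 855 nt. It adds blocks 3 and 4 in front of blocks 5 to 8, carries segment b and lacks segment a. The same stretch, positions 468 to 729 of this circle, is shown with segment b in capitals.
novel_circ_0040892: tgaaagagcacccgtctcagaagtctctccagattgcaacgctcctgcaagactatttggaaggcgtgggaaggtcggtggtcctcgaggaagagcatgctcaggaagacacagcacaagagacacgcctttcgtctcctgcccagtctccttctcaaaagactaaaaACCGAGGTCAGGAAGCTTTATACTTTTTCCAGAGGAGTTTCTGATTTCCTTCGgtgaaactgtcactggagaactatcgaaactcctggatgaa

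Segment a occurred in 1 of the 17 circles and segment b in 2, whereas block 6 was whole in 13, block 7 in 14 and block 8 in 11. None of the 15 other circles held either segment. The numbered blocks were cut from minor circles, and the segments are what the leading circle holds between them. For the circles used in the cut, holding the blocks and lacking the segments is thus fixed and no finding. In the whole series neither segment was found in any circle outside these 2. The carriers were also the 2 circles with the most reads, and whether the number of reads bears on which segments a deposited sequence includes was not tested. Each circle, defined by its junction, has 1 sequence and 1 count per library, so the share of molecules that contain a segment is not known.

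**Figure D2:**
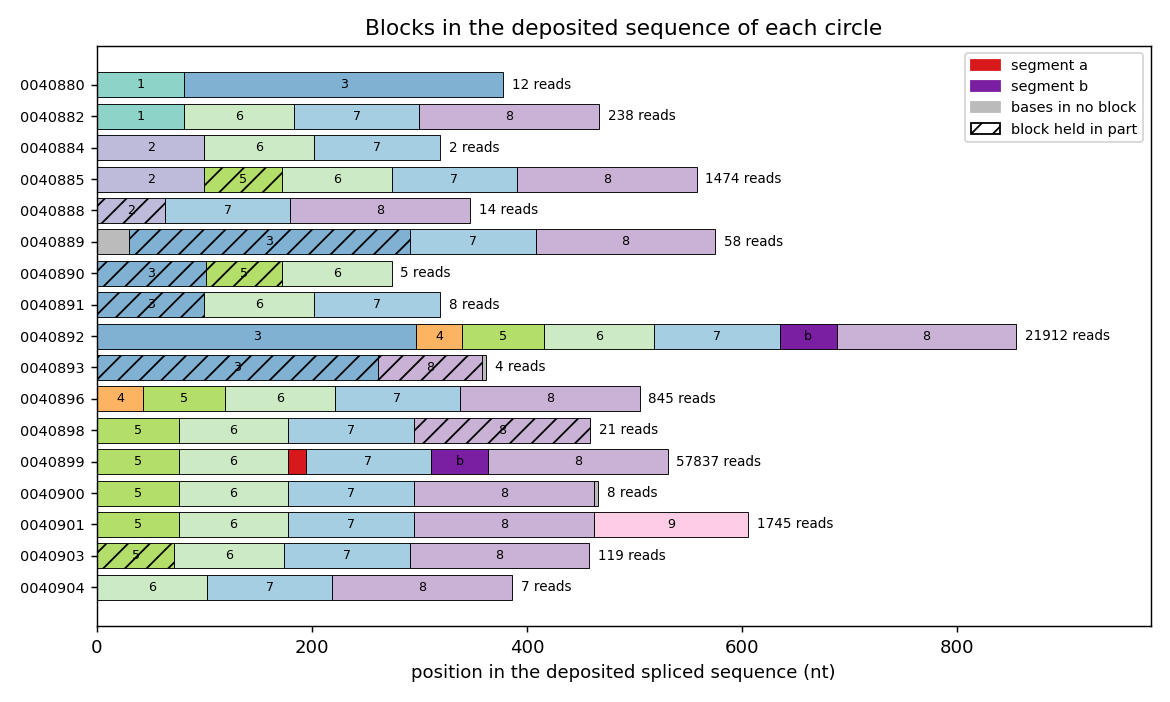
Block content of the 17 deposited sequences in nt from the back-splice junction, with hatching for a block held in part and the summed reads at the right. The red segment a (16 nt) is in the bar of 57837 reads, and the dark violet segment b (53 nt) is in the bars of 57837 and 21912 reads.

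The minor circles are described here by the same blocks. The numbered blocks were cut from minor circles, so that these hold them is no finding. Blocks 1, 2 and 9 are in neither leading circle, and novel_circ_0040893 and novel_circ_0040900 each end in 4 bases found in no block. novel_circ_0040896 (505 nt) is blocks 4 to 8, and novel_circ_0040901 (606 nt) is blocks 5 to 8 followed by block 9. novel_circ_0040882 (467 nt) joins block 1 to blocks 6, 7 and 8, skipping blocks 2 to 5. novel_circ_0040880 (378 nt) is blocks 1 and 3, with 7 and 5 reads in CFA replicates 2 and 3 and 0 elsewhere. novel_circ_0040885 (558 nt) joins block 2 to block 5 from its base 5 on, the same inner border that novel_circ_0040903 uses as a start. novel_circ_0040884 and novel_circ_0040885 begin with block 2, whose 100 nt were set by novel_circ_0040885. In novel_circ_0040890 and novel_circ_0040891 block 3 is given with 101 and 100 bases, although it is 297 nt long at the start of novel_circ_0040892. The last of the 101 bases equals base 5 of block 5, so the join in novel_circ_0040890 may also lie before it. The sources used here do not say how the authors chose the inner borders.

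Segments a and b changed the reading frame. Without both, blocks 5 to 8 are 462 nt, a multiple of 3, and the frame that opens at the first base of block 5 has no stop codon all round the circle. Segment a adds 16 nt and segment b 53 nt. In a circle of blocks 5 to 8 only the pair together keeps the length a multiple of 3. In the leading circle that frame met 1 stop codon, at position 307 in block 7, among 177 codons, with 1 ATG. In the second circle, read from block 5 on, it met 13, the first in segment b. That circle, at 855 nt, is a multiple of 3 with segment b alone. Without segment b it would be 802 nt, and with segment a too 871 nt. Neither length is a multiple of 3, and neither sequence is free of stops all round. Of the 17 circles 3 were free of stops all round (novel_circ_0040885, novel_circ_0040898 and novel_circ_0040901), and neither leading circle was. In that frame novel_circ_0040901 had 1 ATG, and novel_circ_0040885 and novel_circ_0040898 had 0. Over the series 18.8% of circRNAs had a frame free of stops all round, with or without an ATG. Among those within 10% of the leading circle's length it was 19.2%. An open frame is a property of the letters and does not show translation.

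The circles were also searched for miRNA seed matches. The miRNA seeds (bases 2 to 8) of 16 families with known roles in neurons or inflammation were to be searched round the circles, on the strand given, and 15 had a mature sequence in the RefSeq table (GRCr8), which held no miR-124. The leading circle matched 1 family and the second circle 2. Both hold GTGCCAT, the reverse complement of the miR-183 seed, in block 8, at positions 447 and 771, and 13 of the 17 circles held it. The second circle also holds CACTGTG, the reverse complement of the miR-128 seed, at position 25 in block 3. The mature sequences are given with the seed in capitals.
rno-miR-183-5p: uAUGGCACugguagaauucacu
rno-miR-128-3p: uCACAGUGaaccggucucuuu
Among circRNAs within 10% of the second circle's length, 5.67% held the miR-183 site and 12.9% the miR-128 site. For the leading circle's length the share with the miR-183 site was 3.61%. The miR-146 site was held in block 2 by 2 circles of the locus and by neither leading circle. A match of letters does not show binding.

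Both leading circles varied more between rats than between the groups. Levels are given as RPM, reads per 1000000 circRNA reads of a library, with no correction for length. novel_circ_0040899 had 13861, 9561 and 9689 RPM in CFA replicates 1 to 3, and 9252, 10508 and 17185 RPM in saline replicates 1 to 3. The highest and the lowest value were both saline libraries, and all CFA values lay between them. The means were 11037 ± 2447 and 12315 ± 4264 RPM (SD, n = 3 each). The log2 fold change, CFA minus saline, was -0.20 ± 0.19 (SE), and the Benjamini-Hochberg adjusted p from the quasi-likelihood test of edgeR was 1.0. Without saline replicate 3 the edgeR fold change was 0.15. DESeq2 gave -0.17 ± 0.27 (SE) with all libraries.

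novel_circ_0040892 had 5649, 3995 and 4126 RPM in the CFA libraries and 3807, 3404 and 6072 RPM in the saline libraries. Again the saline libraries held both the highest and the lowest value. The means were 4590 ± 919 and 4428 ± 1438 RPM (SD, n = 3 each), and the log2 fold change was 0.01 ± 0.22 (SE), with a Benjamini-Hochberg adjusted p of 1.0 from edgeR. Leaving out CFA replicate 1, saline replicate 1 or saline replicate 2 turned it to -0.17, -0.13 or -0.12.

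**Figure D3:**
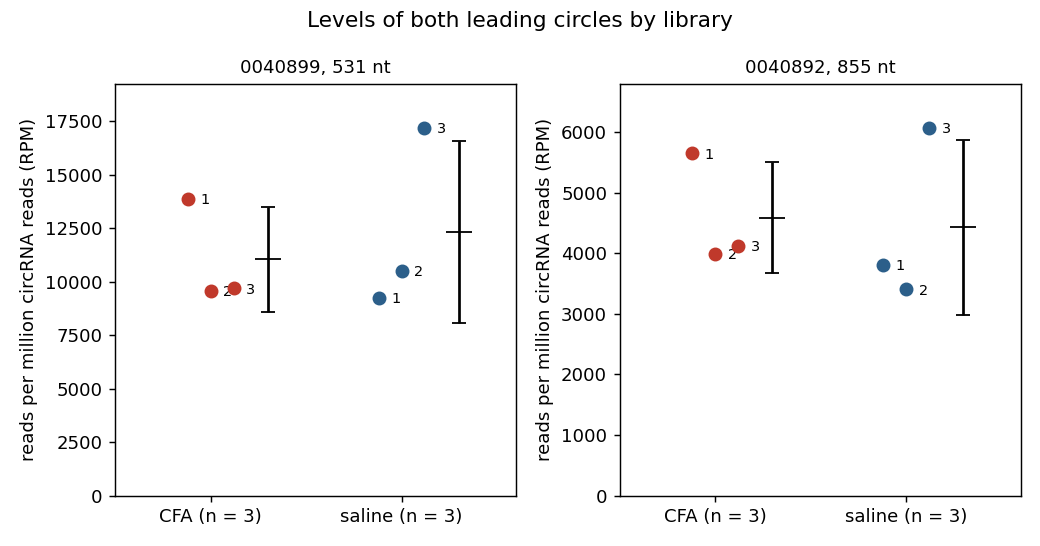
RPM of both leading circles in each library, with the replicate number beside each point and the mean ± SD (n = 3) as a bar at the right of each group. Saline replicate 3 and CFA replicate 1 are the 2 highest points in both panels, and the ranges of the groups overlap.

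The same libraries were high for the next most read circles, but not for all. Saline replicate 3 and CFA replicate 1 were the 2 highest libraries for each of the 5 circles with most reads, although these circles share the library and its total. For the next circle by reads, novel_circ_0040882, saline replicates 1 and 2 were highest and CFA replicate 1 was lowest, with 0 reads. Across libraries the highest RPM was 1.86 times the lowest for novel_circ_0040899 and 1.78 times for novel_circ_0040892. The 17 circles together made up 1.39% to 2.45% of all circRNA reads of a library.

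Within a library the balance of both leading circles was held more closely than their level. There were 2.45, 2.39 and 2.35 reads of novel_circ_0040899 per read of novel_circ_0040892 in CFA replicates 1 to 3, and 2.43, 3.09 and 2.83 in saline replicates 1 to 3. The 3 CFA libraries lay close together, and saline replicate 1 fell among them while saline replicates 2 and 3 were higher. Per nucleotide of spliced length the ratio was 3.78 to 4.97. The sources used here do not say whether a count includes reads from outside the junction, which would make it grow with length. The log2 ratio of novel_circ_0040892 to novel_circ_0040899 was -1.26 ± 0.03 in CFA and -1.47 ± 0.17 in saline rats (SD, n = 3 each), a difference of 0.21 (exact two-sided permutation test, p = 0.2, adjusted p = 0.45 over the 6 measures of this kind). Leaving out saline replicate 2 gave 0.13 and leaving out saline replicate 1 gave 0.30. With 3 rats against 3 the test cannot give a p below 0.1.

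**Figure D4:**
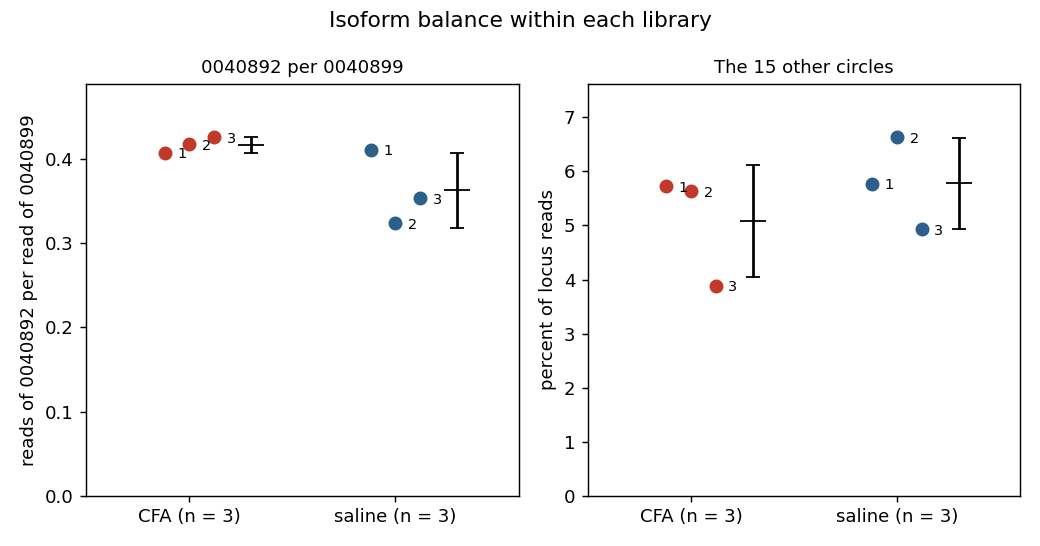
Left, reads of novel_circ_0040892 per read of novel_circ_0040899; right, the 15 other circles as a percent of the locus reads; 1 point per library with its replicate number, and the mean ± SD (n = 3). On the left saline replicate 1 (0.411) lies among the CFA libraries (0.408 to 0.426), and on the right CFA replicate 3 (3.89%) is the lowest.

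As a share of the locus reads, novel_circ_0040899 held 67.0%, 66.6% and 67.4% in the CFA libraries and 66.8%, 70.5% and 70.2% in the saline libraries. Counting error alone gives 95% Wilson intervals of at most ± 1.04 percentage points, so saline replicates 2 and 3 stood above the 4 others by more than counting error, and saline replicate 1 did not. PCR reads without molecular identifiers are not independent molecules, so such intervals cover counting error only. The difference, -2.20 percentage points, had an exact two-sided permutation p of 0.3 (adjusted p = 0.45), and was -3.40 without saline replicate 1. Circles starting where novel_circ_0040892 starts held 28.0 ± 0.752% and 25.1 ± 2.30% of the locus reads (SD, n = 3 each; exact two-sided permutation p = 0.2, adjusted p = 0.45). That difference of 2.90 percentage points was 1.82 without saline replicate 2. Circles with the shared end held 97.7 ± 0.221% and 98.1 ± 0.423% (exact two-sided permutation p = 0.3, adjusted p = 0.45), and the difference ran from -0.646 without saline replicate 2 to -0.266 without saline replicate 1.

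The 15 other circles held 5.08 ± 1.03% of the locus reads in CFA and 5.78 ± 0.850% in saline rats (SD, n = 3 each), with an exact two-sided permutation p of 0.4 and an adjusted p of 0.48. Leaving out novel_circ_0040885, which had no reads in CFA replicate 3, the difference turned from -0.70 to 0.14 percentage points, and with all circles it ran from -1.12 without saline replicate 3 to -0.27 without saline replicate 2 and -0.10 without CFA replicate 3. The libraries showed 8, 10 and 11 circles of the locus in CFA and 9, 11 and 11 in saline (exact two-sided permutation p = 0.7, adjusted p = 0.7). Thinned to the 7951 locus reads of the smallest library, and counted at 2 reads or more, they showed 9.32 ± 1.18 and 9.68 ± 0.729 (SD, n = 3 each).

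None of the minor circles was called either. Of the 17 circles 11 had the 10 reads over all libraries that the test asked for, and 0 of these passed at an adjusted p of 0.05, with 1 at an unadjusted p under 0.05 in edgeR. DESeq2 also called 0 of them. Over all 22426 circRNAs tested, 0.125% were called, 0.0624% as higher and 0.0624% as lower in CFA. The log2 fold change was above 0 in 5 circles and below 0 in 6, with a median of -0.20, beside a median of -0.05 over all circRNAs tested, of which 52.5% were below 0. In 0 of the 11 the RPM values of both groups were apart, where the share over all circRNAs tested was 6.63%. The 6 circles under 10 reads (novel_circ_0040884, novel_circ_0040890, novel_circ_0040891, novel_circ_0040893, novel_circ_0040900 and novel_circ_0040904) did not enter this test. Without the filter all 17 were tested, and 0 were called in edgeR.

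novel_circ_0040901, the circle that runs on to block 9, had 345, 194 and 282 reads in the CFA libraries and 123, 418 and 383 in the saline libraries. That is 378 ± 128 and 326 ± 101 RPM (SD, n = 3 each), with overlapping groups. Its log2 fold change was 0.16 ± 0.31 (SE), and leaving out CFA replicate 1 or saline replicate 1 turned it to -0.16 or -0.10. novel_circ_0040896, which starts at block 4, had 124, 91 and 133 against 73, 182 and 242 reads. It kept a narrow share of the locus reads, 0.970 ± 0.0558% in CFA and 1.0045 ± 0.0753% in saline libraries (SD, n = 3 each). Its log2 fold change was -0.23 ± 0.36 (SE) and turned to 0.15 without saline replicate 3. Both circles had an adjusted p of 1.0 in edgeR.

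A pair of minor circles was missing from 1 library each. novel_circ_0040885 had 273 and 181 reads in CFA replicates 1 and 2 and 184, 429 and 407 in saline replicates 1 to 3, and is listed at 0 in CFA replicate 3. That library held 903443 circRNA reads, and the median level of the 5 others, 365 RPM, would amount to 330 reads in it. A count of 0 allows up to 3.32 RPM (3 counts), and no count of 1 appears in the table, so a single read may be listed as 0. The log2 fold change was -0.75 ± 1.68 (SE), with a Benjamini-Hochberg adjusted p of 1.0 from edgeR. It was -0.17 without CFA replicate 3, -1.54 without CFA replicate 1 and -1.57 with the replicate number as a block. The deposited column of that library has a different first letter from both other CFA columns, and the sources used here do not explain the letters. Zeros of this kind, where the 5 remaining libraries had a median of 200 RPM or more, made up 40 of 5004 values in the series, and 7 of the 40 were in CFA replicate 3.

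novel_circ_0040882, which skips from block 1 to block 6, is listed at 0 in CFA replicate 1 and had 19 and 51 reads in CFA replicates 2 and 3. The saline libraries held 44, 83 and 41 reads. CFA replicate 3 lay within the saline range of 43.8 to 76.7 RPM, and CFA replicate 2, at 29.2 RPM, below it. This was the 1 circle of the locus with an unadjusted p under 0.05 in edgeR, at a log2 fold change of -1.15 ± 0.54 (SE) and a Benjamini-Hochberg adjusted p of 0.912. It was -0.58 when CFA replicate 1 was left out and -2.18 when CFA replicate 3 was, with an adjusted p of 0.287.

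**Figure D5:**
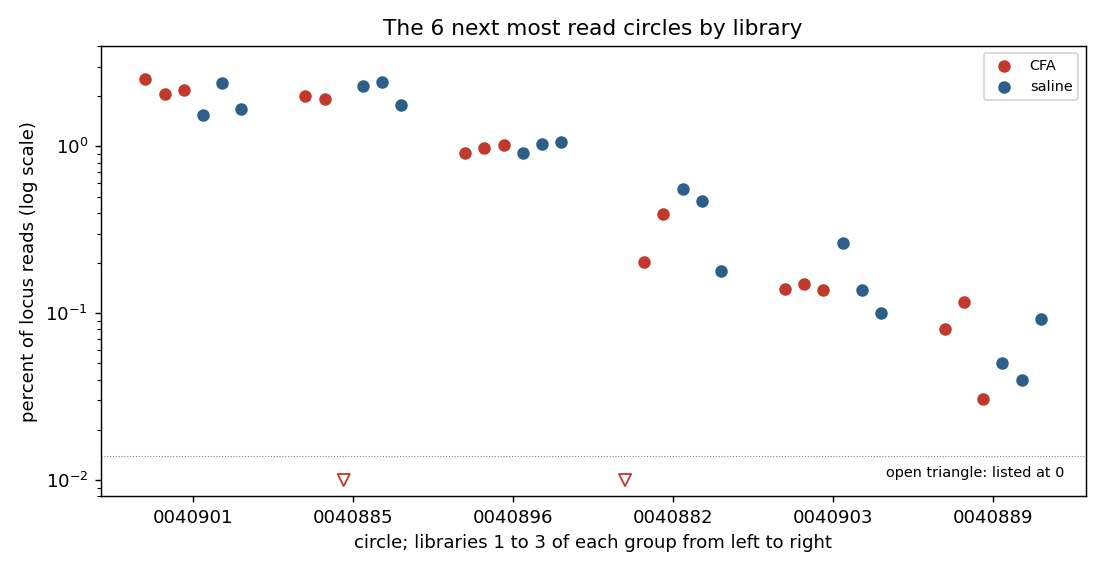
The 6 most read circles after the leading pair, as a percent of the locus reads on a log axis, 1 point per library with CFA replicates 1 to 3 and then saline replicates 1 to 3 from left to right, and open triangles for a listed 0. novel_circ_0040896 stays near 1% in every library, while novel_circ_0040885 and novel_circ_0040882 are each at 0 in 1 CFA library.

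The other tested minor circles were sparse. novel_circ_0040903 had 14 to 24 reads in each of the 6 libraries, with a log2 fold change of -0.22 ± 0.67 (SE) that became -0.03 without saline replicate 1 and -0.41 without CFA replicate 1. novel_circ_0040889, which begins 30 bases before block 3 with bases found in no block, had 4 to 21 reads in each library and a log2 fold change of 0.02 ± 1.23 (SE), which ran from -0.29 to 0.94 as single libraries were left out. novel_circ_0040888 had reads in 2 libraries and novel_circ_0040898 in 3, and novel_circ_0040880 was read in CFA replicates 2 and 3 alone.

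Summed over the run of 18 overlapping circRNAs, which adds novel_circ_0040905 to the 17, the locus held 16498 ± 3658 RPM in CFA and 17758 ± 5845 RPM in saline libraries (SD, n = 3 each). Its log2 fold change was -0.13 ± 0.24 (SE), with a Benjamini-Hochberg adjusted p of 1.0 from edgeR, and 0.20 without saline replicate 3. Over the 7580 loci tested 0.0132% were called, and 6.08% had groups whose RPM did not overlap; those of this locus overlapped.

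The second circle took a larger share here than at most well-read loci, while the share of the first was near the usual. In this comparison a locus is a run of overlapping circRNAs, so the one on chromosome 7 has 18 circles and 84394 reads. Among the 61 loci with several circles and at least 10000 reads the median first share was 65.5%, beside 68.5% here. Their median second share was 12.02%, and 12 loci had a higher second share than the 26.0% found here. The chromosome 9 locus of the most abundant circle (17 circles, 77641 reads against 84394 here) gave 87.7% to 89.7% of its reads to its first circle and 4.38% to 6.41% to its second. A chromosome 2 locus from 22919686 to 23000600 (13 circles) gave 90.7% to 93.2% and 1.51% to 3.77%. On chromosome 7 these ranges were 66.5% to 70.5% and 22.8% to 28.7%. These shares chose the locus and are given without a test.

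Among 1654 circRNAs outside the locus with reads in all 6 libraries and a mean of at least 100 RPM, the pattern most like that of novel_circ_0040899 belonged to novel_circ_0029973. This 441 nt circle lies on chromosome 3, 92468464 to 92473765 on the plus strand, and had 349, 203 and 142 RPM in CFA and 126, 182 and 543 RPM in saline libraries. Next was novel_circ_0017481, 730 nt, on chromosome 1, 127814440 to 127887913. Their Pearson correlations of log2(RPM + 1) over the 6 libraries were 0.966 and 0.962, against 0.898 for novel_circ_0040892. Of the 1654 circRNAs, 23 had a correlation above that last value. With 6 libraries and so many candidates these are a description of the order of libraries.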

How the data were processed

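CircRNAs were counted in thalamus RNA of 3 CFA and 3 saline rats. Poly-T beads were used in purification, per the labels' protocols, which name no molecular identifiers; such beads favour RNA with a poly(A) tail. The submitters' processing notes name DESeq2 1.20.0, featureCounts 1.5.0-p3, HISAT2 2.0.5 and StringTie 1.3.3b, and no circRNA caller was given in the sources used here.

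Per the file headers, the deposited table holds a read count per circRNA and library, used for all tests. The authors' normalized values, named TPM in the header, are RPM without a length term, since 1 read is worth the same for every circRNA of a library. The printed RPM come from the counts. The lowest count above 0 was 2. Starts counted from 0 in the deposited headers had 1 added. For 44 identifiers with more than 1 sequence record, none at this locus, the first was used.

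Counts were tested with edgeR 4.0.16 in R 4.3.3 (TMM, robust quasi-likelihood, at least 10 counts in all) over all circRNAs, and over loci, runs of overlapping circRNAs on 1 strand, with Benjamini-Hochberg adjustment and a threshold of 0.05. Each SE is the size of the log2 fold change divided by the square root of F. Shares and ratios were compared with exact two-sided permutation tests in scipy 1.17.1. Alternatives were DESeq2 1.42.0, other normalizations and filters, a replicate block and leaving out each library. The code was tested on simulated data. Circles are named where they share a border with a leading circle or hold 1% of the locus reads in a library; novel_circ_0040880 and novel_circ_0040884 meet neither and were named after their values were seen. The series' design text counts 6 rats, 1 per library. The members, lists and tests were chosen with earlier results of these data known.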

Additional observations from a re-analysis of the deposited data

How the results depend on the processing

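No circle of the locus, nor the summed locus, was called under any alternative run: edgeR with RLE, total counts, no filter, at least 30 counts, filterByExpr, a fit that is not robust or the replicate block, DESeq2, and each library left out. Of 160 recomputed log2 fold changes, over the 11 tested circles and the summed locus, 147 kept their direction. The 13 that turned came from leaving out 1 library: over these fits the log2 fold change ran from -0.41 to 0.15 for novel_circ_0040899, -0.17 to 0.35 for novel_circ_0040892, -0.46 to 0.15 for novel_circ_0040896, -0.16 to 0.38 for novel_circ_0040901, -0.29 to 0.94 for novel_circ_0040889, -5.62 to 0.11 for novel_circ_0040898 and -0.35 to 0.20 for the summed locus. Of 56 recomputed differences in shares, the ratio and the number of circles 54 kept their direction. The number of circles turned without CFA replicate 1 (from -0.67 to 0.17, range -1.33 to 0.17 with 1 library left out), and the share of the 15 other circles turned to 0.14 without novel_circ_0040885. That setting, and the run with 1 further circle, were chosen after the data were seen.

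Over all circRNAs tested the 28 calls became 0 under the filter of 30 counts (237 below an unadjusted 0.05 in edgeR) or filterByExpr (130), 4 in DESeq2 (379), 45 with the replicate block and 15 to 40 with 1 library left out, the lowest without saline replicate 1. The 1 locus called became 0 under that filter (105 below an unadjusted 0.05), filterByExpr (78) or a fit that is not robust (136), 4 without a filter, 26 with the replicate block and 0 to 3 with 1 library left out. The cause was not tested. Same-numbered libraries did not deviate together (r from -0.071 to 0.023), and the numbers are not read as pairs. This correlation ran over all 22426 circRNAs tested, of which only 1743 lay above 100 RPM, so it could miss a pairing. The SE for the leading circle was 0.19 in the main fit. Over the alternatives it ran from 0.18 without a filter to 0.27 in DESeq2. With 3 rats a group, an SE of this size limits what could be called.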
